A study of Mus musculus with 7 samples.

Results

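The major urinary proteins (Mups) are small secreted lipocalins, and 10 of their genes (Mup1, Mup2, Mup3, Mup7, Mup10, Mup11, Mup12, Mup17, Mup20 and Mup21) were followed in liver RNA of control and lipopolysaccharide (LPS)-treated mice. Members were chosen by gene symbol, and all 10 were found among the 56691 genes of the count table. Hepatocytes make Mups and release them into blood, from which the kidney passes them into urine, where their barrel-shaped pocket carries volatile pheromones. In the mouse the genes lie side by side on chromosome 4 in many near-identical copies. Their transcription in liver is known to be higher in males than in females and to depend on pulsed growth hormone (GH) acting through Stat5b, with further input from androgen, thyroid hormone and glucocorticoid.

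Poly(A) RNA of liver was sequenced from 4 control mice and 3 LPS mice, a model of sepsis-like liver injury. All were male C57BL/6J mice, 8 weeks old at purchase and housed for 2 weeks before the experiment, in a study with 6 mice per group. LPS mice received 10 mg/kg LPS intraperitoneally and livers were taken 24 h later; what the control mice received is not given in the sources used here. Sulforaphane-treated mice were not analysed here. Each library was taken as 1 mouse, so p-values measure the spread between these 7 libraries. Total counts were 14991022, 15096573, 15721944 and 18584140 in control mice 1 to 4 and 20500391, 17095607 and 17821331 in LPS mice 1 to 3. Levels are given in CPM, the reads of a gene set against the TMM-adjusted size of its library.

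The libraries were not equally alike. Mitochondrially encoded genes took 23.7%, 14.6%, 7.48% and 8.96% of counts in control mice 1 to 4 and 6.45%, 3.83% and 3.94% in LPS mice 1 to 3, so that this share was lower in every LPS mouse than in any control mouse. LPS mice 2 and 3 were closer to each other than any other pair within a group: the SD of their log2 ratio over genes came to 0.102, while the other 8 pairs gave 0.294 to 0.578. Counts of both differed by more than sampling noise, with a mean chi-square of 4.58 per gene where chance gives about 1. The other pairs within a group gave 25.8 to 186. This measure covers counting error only, so it cannot show whether both libraries came from separate mice. Both were kept.

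The Mup transcript pool of the liver was much smaller in LPS mice, at 35.8% of its control size. The 10 members together held 3.74%, 2.96%, 3.36% and 3.18% of all counts in control mice 1 to 4, and 0.942%, 1.17% and 1.16% in LPS mice 1 to 3. On the scaled measure the family sum was 39707, 28187, 32281 and 28621 CPM in control mice and 8896, 12836 and 12885 CPM in LPS mice. Control mouse 1 was highest, LPS mouse 1 was lowest, and the groups did not overlap. The mean was 32199 ± 5331 CPM (SD, n = 4) in control mice and 11539 ± 2289 CPM (SD, n = 3) in LPS mice, a 2.79-fold lower sum in LPS mice (exact two-sided permutation test over 35 assignments, p = 0.0286, the smallest this design can give). Entered as 1 row into the edgeR fit, the family sum had a log2 fold change of −1.48 (SE 0.24, 95% interval −1.95 to −1.02, Benjamini-Hochberg adjusted p = 0.000539).

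The sum does not depend on how reads were divided among the 10 members, but reads shared with Mup genes outside the list, or dropped in counting, could still change it. Summed over all 49 Mup rows, LPS mice had 35.9% of the control level. With 95% Wilson intervals of 3.734% to 3.753% in control mouse 1 and 0.9374% to 0.9458% in LPS mouse 1, counting error was far below the spread between mice. With mitochondrially encoded genes left out of the table, the family sum in LPS mice was 35.5% of the control level. In bulk tissue, fewer hepatocytes and less Mup RNA per hepatocyte cannot be told apart.

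**Figure D1:**
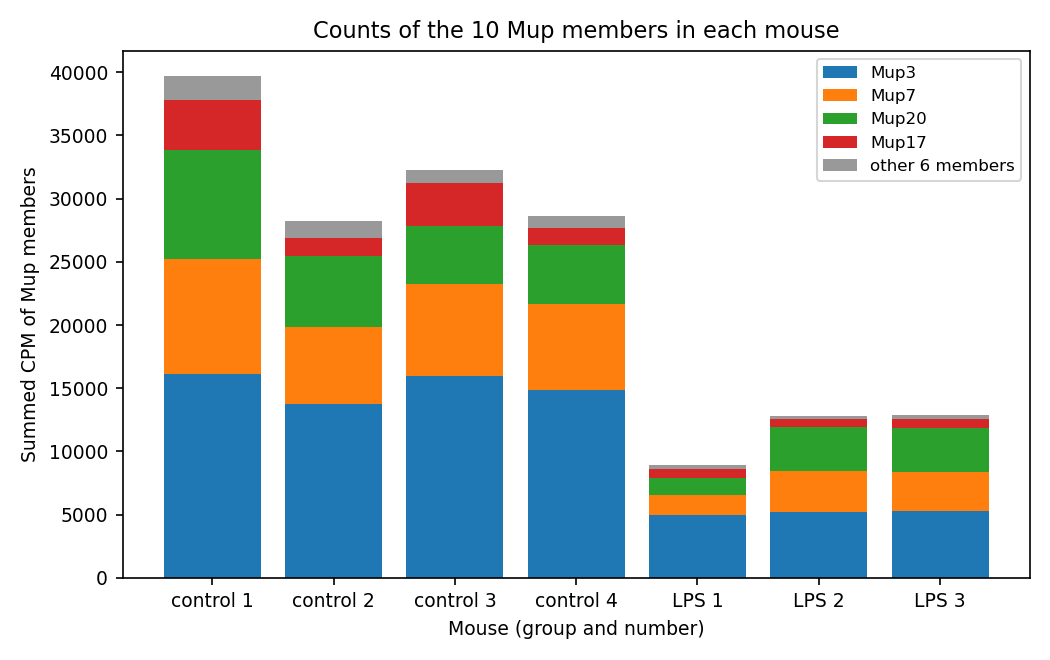
Summed CPM (linear axis from 0) of the 10 Mup members in each of 4 control and 3 LPS mice, stacked by the 4 most abundant members and the other 6 together. The control sums lie between 28187 and 39707 CPM and the LPS sums between 8896 and 12885 CPM.

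Every member took part in the fall. All 10 passed the filter on low counts, all 10 were called lower in LPS mice (adjusted p below 0.05 and log2 fold change below −1), and in all 10 every LPS mouse was below every control mouse. Of the 13683 genes tested, 7.31% were called lower, 7.81% were called higher and 17.4% had all LPS mice below all control mice. No member was called higher by edgeR (0 of 10), and this count was also 0 at an unadjusted p below 0.05 and 0 with DESeq2. The members' median log2 fold change was −1.65, with a range from −2.62 for Mup2 to −1.08 for Mup20, while the median over all genes tested was −0.014.

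Mup3, a member whose protein is glycosylated, held the largest share of the family's counts, though reads shared by near-identical members may have been dropped. The level of Mup3 was 16160, 13720, 15980 and 14890 CPM in control mice 1 to 4 and 4981, 5203 and 5270 CPM in LPS mice 1 to 3. Both groups were tight, with coefficients of variation of 7.42% and 2.93%, and the highest LPS mouse reached 38.4% of the lowest control mouse. The edgeR log2 fold change was −1.56 (SE 0.19, adjusted p = 5.91e-05), and LPS mice had 33.9% of the control mean. By mean CPM, not corrected for length, Mup3 ranked 5th of all rows in control mice and 31st in LPS mice.

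Mup7 was measured at 9061, 6159, 7238 and 6770 CPM in control mice and at 1597, 3256 and 3064 CPM in LPS mice. The values of LPS mice 2 and 3 lay close together, and LPS mouse 1 was well below both. The edgeR log2 fold change was −1.47 (SE 0.26, adjusted p = 0.00115).

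Mup20 encodes darcin, the male pheromone protein that draws females to a scent mark. It was at 8591, 5619, 4645 and 4676 CPM in control mice and 1335, 3503 and 3488 CPM in LPS mice. Control mouse 1 stood above the other controls, LPS mouse 1 stood below the other LPS mice, and the highest LPS mouse came to 75.4% of the lowest control mouse, the narrowest gap in the family. Mup20 had the smallest change of the 10 members, at an edgeR log2 fold change of −1.08 (SE 0.33, adjusted p = 0.0298). This call rested on single mice: it was lost without control mouse 1 (log2 fold change −0.85, adjusted p = 0.0631), without control mouse 2 (−1.13, adjusted p = 0.0534) and without LPS mouse 1 (−0.75, adjusted p = 0.0581), in a range of adjusted p from 7.16e-06 to 0.0631 over 16 alternatives.

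Mup17 varied most among control mice. Its level was 3982, 1364, 3336 and 1313 CPM in control mice and 687.1, 585.1 and 731.8 CPM in LPS mice. Control mice 1 and 3 were high and control mice 2 and 4 low, giving a coefficient of variation of 54.7%, against 11.3% in LPS mice, and still no LPS mouse reached a control mouse. The edgeR log2 fold change was −1.90 (SE 0.37, adjusted p = 0.00216).

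Mup11 was at 1121, 712.4, 535 and 438.1 CPM in control mice and 142.9, 136.6 and 166.3 CPM in LPS mice. LPS mice had 21.2% of the control mean, and the edgeR log2 fold change was −2.24 (SE 0.28, adjusted p = 9.14e-05). The control values were spread widely (coefficient of variation 43%), while the LPS mice lay close together (10.5%).

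Mup21 was at 676.7, 519.5, 417.5 and 433.5 CPM in control mice and 131.6, 125.9 and 123.7 CPM in LPS mice. The LPS values differed little among themselves (coefficient of variation 3.21%), and the highest was 31.5% of the lowest control value. With an edgeR log2 fold change of −2.01 (SE 0.19), Mup21 had the smallest adjusted p of the family, 6.64e-06.

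The remaining 4 members had fewer assigned counts. Mup2 was at 33.82, 29.85, 56.95 and 36.15 CPM in control mice and 3.917, 6.313 and 9.089 CPM in LPS mice, and its 6.09-fold lower mean was the largest change of the family (edgeR log2 fold change −2.62, SE 0.30, adjusted p = 3.59e-05). Control mouse 3 was highest, and no LPS mouse came above 30.4% of the lowest control mouse. Mup1, whose protein also circulates and has been linked to glucose and lipid metabolism, was at 41.18, 38.18, 49.37 and 33.39 CPM in control mice and 7.236, 13.4 and 16.19 CPM in LPS mice (edgeR log2 fold change −1.73, SE 0.25, adjusted p = 0.000229). LPS mouse 1 was again the lowest. Mup12 ranged from 22.18 to 39.84 CPM in control mice and from 5.54 to 15.13 CPM in LPS mice (edgeR log2 fold change −1.54, SE 0.31, adjusted p = 0.00281). Mup10 rested on few reads, with 38, 57, 72 and 74 counts in control mice and 32, 15 and 20 counts in LPS mice (edgeR log2 fold change −1.53, SE 0.37, adjusted p = 0.00859). Raw counts of control mouse 1 and LPS mouse 1 were close for Mup10, and the difference appeared on the scaled measure, 2.689 against 1.475 CPM.

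**Figure D2:**
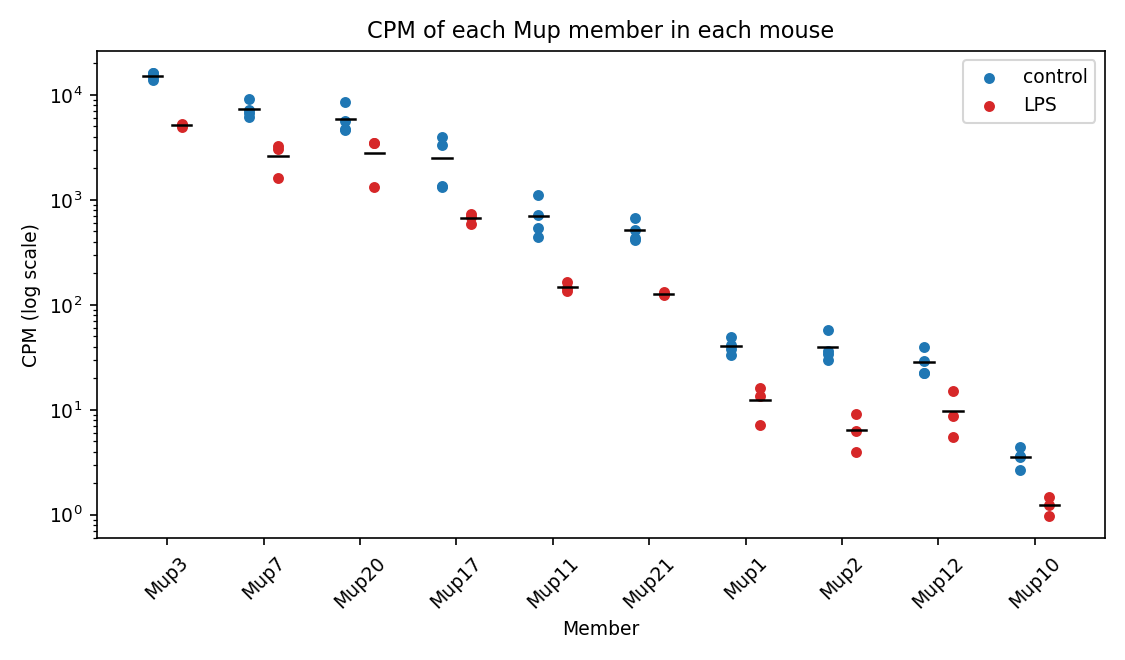
CPM (log axis) of each Mup member in each mouse, with control mice in blue, LPS mice in red and a black line at each group mean, ordered by mean level. In all 10 members every red point lies below every blue point of the same gene, with the narrowest gap at Mup20.

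Relative to transcript length, the counts assigned to the members differed over more than 3 orders of magnitude in control liver. Reads shared by near-identical Mup genes may have been divided or dropped in counting. The order of the members per length therefore describes assigned counts and may not be the order of their transcripts. Mup3 had 15400 ± 1150 CPM per kb of its longest annotated transcript (984 bases; SD, n = 4), above Mup7 at 7070 ± 1210 and Mup20 at 6340 ± 2010, which overlapped each other within 1 SD. Mup17 followed at 2700 ± 1470 CPM per kb. Mup21 and Mup11 had nearly the same level per length, 756 ± 175 and 754 ± 325 CPM per kb. Mup1 (43.7 ± 7.24), Mup2 (42.3 ± 13.1) and Mup12 (30.7 ± 8.91) formed a low group that did not differ beyond its spread, and Mup10 was lowest at 3.85 ± 0.754 CPM per kb. In LPS mice Mup3 was at 5240 ± 153, Mup20 at 2990 ± 1340 and Mup7 at 2550 ± 879 CPM per kb (SD, n = 3), the latter pair again overlapping. Which of Mup7 and Mup20 was higher per length differed between mice within both groups.

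The make-up of the pool changed less than its size. Mup3, Mup7 and Mup20 together made up 85.1% to 92.0% of the family sum in control mice and 89.0% to 93.2% in LPS mice. Mup3 alone held 40.7%, 48.7%, 49.5% and 52.0% in control mice and 56.0%, 40.5% and 40.9% in LPS mice, so the groups overlapped. LPS mouse 1 differed from LPS mice 2 and 3 in this respect: Mup20 held 15.0% of the family sum in LPS mouse 1 and 27.3% and 27.1% in the other LPS mice, against 21.6%, 19.9%, 14.4% and 16.3% in control mice. The ratio of Mup20 to Mup3 was 0.268 in LPS mouse 1, 0.673 in LPS mouse 2 and 0.662 in LPS mouse 3, and lay between 0.291 and 0.532 in control mice. Of the 10 shares, 9 overlapped between groups. The exception was Mup2, with 0.0852% to 0.176% of the family sum in control mice and 0.044% to 0.0705% in LPS mice. These shares are a description, since reads of near-identical members may have been divided or dropped in counting. Whether 1 share of 10 without overlap is more than chance gives was not tested.

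How far a read can tell the members apart was measured on annotated transcripts. For each member, every window of 100 bases in its longest protein-coding transcript was looked up in the transcripts of all other genes. Mup3 and Mup21 were nearly fully distinct, with 97.1% and 95.5% of windows found in no other gene, followed by Mup20 with 61.2% and Mup17 with 40.6%. The other 6 members had under 25% of unique windows: Mup12 had 22.5%, Mup7 18.4%, Mup11 16.5%, Mup10 14.6%, Mup1 12.8% and Mup2 2.66%. Values of these 6, and in particular of Mup2, are therefore uncertain as values of a single gene. The well-separated members fell as well, Mup3 to 33.9% and Mup21 to 24.8% of the control mean.

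Coding sequences of the members were compared in pairs. Mup1, Mup2, Mup10, Mup11, Mup12 and Mup17 had at least 98.5% identical bases in every pair, with 99.6% between Mup1 and Mup12. Mup3 and Mup21 were closest to each other, at 94.7%, and Mup20 was closest to Mup11 among all Mup genes, at 91.3%. Mup7 was at 65.2% to 76.0% with the other members, but identity was counted over the longer sequence of each pair. The annotated coding sequence of Mup7 has 705 bases, and those of the other members have 540 to 552. These percentages therefore do not measure how far the shared part of Mup7 differs. By the same measure Mup7 was closest to Mup9, which is outside the list and also has 705 bases, at 99.1%.

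**Figure D3:**
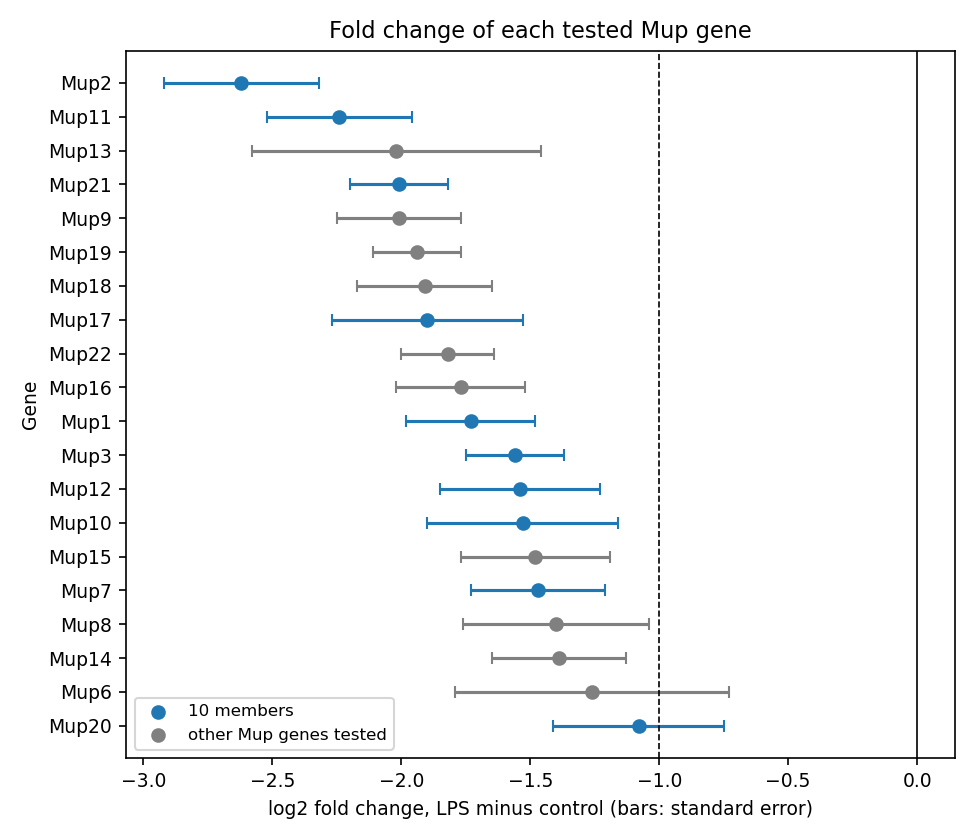
Log2 fold change (LPS minus control, edgeR) of the 20 tested Mup genes with 1 standard error as bars, the 10 members in blue and the other Mup genes in grey, with a dashed line at −1. All 20 points lie left of −1, from −2.62 for Mup2 to −1.08 for Mup20.

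Mup genes outside the list moved in the same direction. Of 12 further Mup genes in the table, 10 were tested and 9 were called lower, beside 7.31% of all genes tested. The 10 tested had log2 fold changes between −2.02 and −1.26, with a median of −1.79. The most abundant were Mup14, at 3507 ± 737 CPM in control mice and 1340 ± 467 CPM in LPS mice (edgeR log2 fold change −1.39, SE 0.26, adjusted p = 0.00177), and Mup15, at 976 ± 442 and 349.9 ± 32.7 CPM (−1.48, SE 0.29, adjusted p = 0.00264). Mup6, at 3.183 ± 0.711 CPM in control mice, was not called and its groups overlapped (−1.26, adjusted p = 0.104), and Mup4 and Mup5 were too low to test. The call of Mup13 (−2.02, adjusted p = 0.0183) was lost without LPS mouse 1 (−1.73, adjusted p = 0.0652) or without LPS mouse 2 (−1.62, adjusted p = 0.0676, the highest over the alternatives), and Mup6 was called without LPS mouse 3 (−2.02, adjusted p = 0.0321) and with no filter on low counts (−1.25, adjusted p = 0.0424), in a range of adjusted p up to 0.238. The 10 members held 84.9% to 87.7% of the counts of all 49 Mup rows in each mouse, and the sum of all Mup rows was 37300 ± 6204 CPM in control mice and 13387 ± 2808 CPM in LPS mice.

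Rows annotated as Mup pseudogenes were counted apart. Of 27 such rows, 9 had no count in any mouse. Another 9 passed the filter and were called lower, beside 7.31% of all genes tested. Of these 9 rows, 6 had at most 2 counts in any LPS mouse and passed through the control mice. The number of calls is therefore a description only. Mup-ps13, the most abundant in control mice, had 45.43 ± 14 CPM there and 2.111 ± 1.24 CPM in LPS mice. Its edgeR log2 fold change was −4.44 (SE 0.36, adjusted p = 1.89e-06). Mup-ps19 fell least, from 26.61 ± 9.99 to 10.46 ± 3.9 CPM with overlapping groups (−1.35, SE 0.33, adjusted p = 0.00874). Mup-ps12 had 100, 46, 105 and 96 counts in control mice and no count in the 3 LPS mice, which is at least 30.4-fold lower when 3 counts are taken for each LPS mouse. By the same floor Mup-ps8 was at least 16.4-fold, Mup-ps7 at least 12.4-fold and Mup-ps6 at least 10.1-fold lower. Mup-ps20 went from 193, 61, 65 and 63 counts to 0, 0 and 1. These rows held few of the Mup reads, 1378 to 2044 counts in control mice and 187 to 251 in LPS mice, and which transcripts gave those reads was not tested.

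Of 10 members, 7 had an entry in the RefSeq promoter table (build GRCm38.p6), which covers 250 bases before and 50 bases after the gene start. Because the members fell together, their promoters were compared. Identity over the 300 bases was 85.7% to 97.7% among Mup2, Mup10, Mup11 and Mup17, and 92.0% between Mup3 and Mup21. The longest run shared by all 7 promoters had 15 bases, aaaacattccacaaa. It starts 6 bases before the annotated gene start of Mup7 and 81 to 141 bases before that of the others, so the window of Mup7 covers sequence further upstream. The identities of Mup7, down to 52.7% with Mup10, are between shifted windows and do not measure how far its promoter differs. Searched on both strands, the letters TTCNNNGAA (a STAT motif) and TTGCNNAA (a C/EBP motif) were in none of the 7 windows, while 8.30% and 10.8% of 32851 promoters of the same length held them. The letters TGTTCT, a half-site of the glucocorticoid receptor, were in 2 of the 7, Mup3 and Mup21, and in 19.0% of all promoters. A match or its absence says only whether these letters are in this window. The promoters of the pair with the half-site are shown with those of Mup2 and Mup17, all on the minus strand and 5′ to 3′, with the TGTTCT match in capitals.
Mup3 (chr4:62087268-62087567): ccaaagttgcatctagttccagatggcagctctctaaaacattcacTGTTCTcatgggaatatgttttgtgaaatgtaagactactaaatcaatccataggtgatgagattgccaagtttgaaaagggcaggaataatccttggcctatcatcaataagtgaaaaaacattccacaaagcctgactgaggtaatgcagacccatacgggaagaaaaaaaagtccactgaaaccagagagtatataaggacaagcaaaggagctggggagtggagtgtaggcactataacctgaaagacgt
Mup21 (chr4:62150792-62151091): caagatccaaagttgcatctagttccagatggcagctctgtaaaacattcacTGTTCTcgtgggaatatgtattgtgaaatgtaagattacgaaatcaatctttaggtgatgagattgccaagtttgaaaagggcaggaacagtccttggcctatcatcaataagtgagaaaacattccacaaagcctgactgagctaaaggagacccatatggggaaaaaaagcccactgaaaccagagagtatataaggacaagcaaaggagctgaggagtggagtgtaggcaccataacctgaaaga
Mup2 (chr4:60139807-60140106): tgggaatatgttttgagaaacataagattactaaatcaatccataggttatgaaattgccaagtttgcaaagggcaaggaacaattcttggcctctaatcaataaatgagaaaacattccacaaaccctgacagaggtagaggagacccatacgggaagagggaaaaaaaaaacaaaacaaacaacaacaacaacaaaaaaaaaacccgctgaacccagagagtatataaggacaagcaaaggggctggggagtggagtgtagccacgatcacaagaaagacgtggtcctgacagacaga
Mup17 (chr4:61595783-61596082): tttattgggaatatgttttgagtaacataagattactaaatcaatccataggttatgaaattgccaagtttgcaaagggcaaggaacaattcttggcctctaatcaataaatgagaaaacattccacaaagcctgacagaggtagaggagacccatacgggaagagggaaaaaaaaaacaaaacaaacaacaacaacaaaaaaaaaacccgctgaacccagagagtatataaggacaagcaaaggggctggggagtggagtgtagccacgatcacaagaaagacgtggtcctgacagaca
The half-site began 204 bases before the gene start in Mup3 and 198 bases before it in Mup21.

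Genes beside the Mup cluster were counted for comparison. Among the 10 nearest tested genes on each side of the outermost members, in RefSeq order, 2 of 20 were called lower, beside 7.31% of all genes tested, and the median log2 fold change was 0.135, with a range from −1.62 to 0.83. Those called were Ptgr1 (5.7 ± 0.499 CPM in control and 1.97 ± 0.51 CPM in LPS mice, edgeR log2 fold change −1.54, SE 0.30, adjusted p = 0.00203) and Alad, an enzyme of heme synthesis (87.9 ± 32 and 41.7 ± 1.27 CPM, −1.08, SE 0.24, adjusted p = 0.00601). The call of Alad was lost without control mouse 1 or without control mouse 2, at −0.91 and −0.94. Gm12909, the 1 tested gene between the outermost members that is not a Mup row, was lower (−1.65, SE 0.38, adjusted p = 0.00685); it is named here after its value was seen.

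The 5 non-Mup genes whose pattern over the 7 mice was closest to the family sum were Elovl6, Hes6, Klhdc7a, 4931406C07Rik and Me1. Closeness was the root mean square difference of mean-centred log2 CPM, searched over 7053 genes that averaged 10 CPM or more. The 5 lay at 0.089, 0.158, 0.168, 0.178 and 0.181, against a median of 0.804. They were picked by this search over the same 7 mice, so their likeness to the family sum and their lower levels follow from the choice and test nothing. Elovl6, a fatty acid elongase, was at 76.78, 58.57, 57.99 and 62.08 CPM in control mice and 17.42, 23.45 and 24.65 CPM in LPS mice (edgeR log2 fold change −1.55). Me1, malic enzyme, was at 209.6 ± 21 and 80.96 ± 9.78 CPM (−1.37).

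Genes of the growth hormone axis and other regulators of Mup transcription were measured beside the family. Of 31 listed genes 29 were tested, 11 were called lower (8 to 12 over the alternatives) and 3 higher (3 to 4), beside 7.31% and 7.81% of all genes tested, and the median log2 fold change was −0.53. Ghr, the GH receptor, was at 589.3, 668, 715.9 and 739.8 CPM in control mice and 230.3, 226.5 and 247.5 CPM in LPS mice (edgeR log2 fold change −1.53, SE 0.15, adjusted p = 9.12e-06). Stat5b, the GH-activated transcription factor, went from 55.59 ± 2.99 to 26.53 ± 0.569 CPM (−1.07, SE 0.13, adjusted p = 6.56e-05). The GH targets Igf1 (−1.13, SE 0.15, adjusted p = 0.000139) and Igfals (−2.70, SE 0.20, adjusted p = 8.74e-07) were lower as well. Socs2, a GH-induced inhibitor, was at 22.15, 18.18, 91.29 and 19.11 CPM in control mice and 1.429, 3.35 and 1.93 CPM in LPS mice. Control mouse 3 stood far above the others, and the edgeR log2 fold change of Socs2 was −4.10 (SE 0.63, adjusted p = 0.000392) with it and −3.17 (adjusted p = 5.5e-06) without it, within a range of adjusted p up to 0.00381 over the alternatives. In the other direction, Socs3, an inhibitor of cytokine signalling, rose from 7.027 ± 3.16 to 52.65 ± 11.9 CPM (2.90, SE 0.32, adjusted p = 2.61e-05) and Stat3 rose from 52.81 ± 12.7 to 166.4 ± 11.6 CPM (1.66, SE 0.18, adjusted p = 2.98e-05). Not called were Stat5a (−0.71, adjusted p = 0.0316, under the fold threshold), Hnf4a (0.74, adjusted p = 0.0096, under the fold threshold), Nr3c1, the glucocorticoid receptor (−0.37, adjusted p = 0.0995), and Zhx2 (0.38, adjusted p = 0.336). Whether any of these genes has a part in the lower Mup levels was not tested.

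The Mup family belongs to the genes that male mouse liver expresses more than female liver, and 37 other such genes were listed. Of the 36 tested, 20 were called lower (17 to 22 over the alternatives) and 3 higher (2 to 3), beside 7.31% and 7.81% of all genes tested, with a median log2 fold change of −1.73, beside −1.65 for the Mup members and −0.014 for all genes tested. Some changed much more than the Mups: Hsd3b5 went from 305.7 ± 57.2 to 1.293 ± 0.803 CPM (edgeR log2 fold change −7.82, SE 0.37, adjusted p = 2.3e-08), Hsd3b2 from 81.46 ± 9.16 to 1.495 ± 0.728 CPM (−5.72, SE 0.28, adjusted p = 2.71e-08) and the organic anion transporter Slco1a1 from 588.9 ± 73 to 29.96 ± 5.57 CPM (−4.29, SE 0.20, adjusted p = 1.69e-08). Scara5, in the same list, rose from 2.49 ± 1.36 to 68.47 ± 13.1 CPM (4.79, SE 0.32, adjusted p = 4.09e-07). Among 39 female-biased genes 23 were tested, 5 were called lower (4 to 6 over the alternatives) and 6 higher (3 to 8), with a median of 0.34. Cyp17a1 rose from 1.201 ± 0.246 to 229.2 ± 36.6 CPM (7.56, SE 0.21, adjusted p = 2.49e-10), while Cyp2c40 fell from 86.25 ± 27.9 to 5.279 ± 1.41 CPM (−4.02, SE 0.29, adjusted p = 6.57e-07). In the same list Sult1e1 (8.41) and Cyp4a14 (2.70) rose, and Cyp2a5 (−4.58) and Lpl (−1.70) fell, on the log2 scale. Without LPS mouse 1 the log2 fold change of Cyp2a5 was −6.07.

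Other lipocalins, which share the barrel fold with Mups, went in both directions. Of 26 listed, 12 had no count and 10 were tested, of which 4 were called higher (4 to 5 over the alternatives) and 2 lower (2 to 3), beside 7.81% and 7.31% of all genes tested. Lcn2, which binds bacterial siderophores, was at 14.79, 10.29, 7.944 and 6.242 CPM in control mice and 6592, 9070 and 9256 CPM in LPS mice (edgeR log2 fold change 9.73, SE 0.35, adjusted p = 2.64e-09). Orm1, an acute phase glycoprotein, rose from 893.3 ± 246 to 13920 ± 2790 CPM (3.96, SE 0.26, adjusted p = 3.22e-07) and Orm2 from 11.57 ± 5.13 to 1685 ± 114 CPM (7.19, SE 0.33, adjusted p = 1.69e-08). C8g, a subunit of complement C8, was lower (−1.38, SE 0.16, adjusted p = 4.72e-05). Rbp4, the retinol carrier (−0.71, adjusted p = 0.00661), Ambp (0.96, adjusted p = 0.00126, called without LPS mouse 1 at 1.08) and Apom (0.51, adjusted p = 0.347) were not called. In LPS mice the listed lipocalins other than Mups drew 24420, 32840 and 33360 CPM, more counts than the Mup sum of the same mouse, and in control mice they drew 5354 to 6920 CPM, fewer counts than the Mup sum.

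Secreted hepatocyte proteins were counted as a further list. Of 37 tested, 3 were called lower (Ttr, Apoa2 and Apoc1; 3 to 4 over the alternatives) and 12 higher (11 to 12), beside 7.31% lower and 7.81% higher of all genes tested, with a median log2 fold change of 0.22 and a summed level in LPS mice of 173% of control. Hp, the acute phase protein haptoglobin, rose from 2669 ± 568 to 27530 ± 4300 CPM (edgeR log2 fold change 3.37, SE 0.24, adjusted p = 5.81e-07) and Hpx, hemopexin, from 3190 ± 401 to 32550 ± 5180 CPM (3.35, SE 0.22, adjusted p = 3.07e-07). Of 18 acute phase genes, 17 were called higher (16 to 17 over the alternatives), with Saa3 at a log2 fold change of 9.64 and Saa2 at 9.15, and their sum went from 20730 ± 4150 to 206300 ± 40300 CPM. Without TMM scaling the family sum in LPS mice was 32.9% of control and the median log2 fold change of all genes was −0.129.

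Hepatocyte markers were checked for the tissue label and were present in every library. All 22 were tested, 6 were called lower (5 to 7 over the alternatives) and 4 higher (3 to 4), beside 7.31% and 7.81% of all genes tested, and the median log2 fold change was −0.21. Their summed level was 81580, 84220, 109600 and 95750 CPM in control mice and 60340, 68040 and 68540 CPM in LPS mice, 70.7% of control, where the Mup sum was 35.8%. Alb, the most abundant marker, was at 37960, 37780, 61690 and 50490 CPM in control mice and 24640, 24660 and 24690 CPM in LPS mice (edgeR log2 fold change −0.93, SE 0.24, adjusted p = 0.0137, under the fold threshold). It passed that threshold without control mouse 1 (−1.02, adjusted p = 0.00899), without control mouse 2 (−1.03, adjusted p = 0.0146) and with total counts unscaled (−1.05), in a range of adjusted p up to 0.0654. Among called markers, Cyp1a2 (−5.27), Cyp3a11 (−4.71) and G6pc (−2.44) fell and Tat (1.40) and Tdo2 (1.30) rose on the log2 scale. Ttr was called lower (−1.23, SE 0.18, adjusted p = 0.000254) and Apoa1 was not (−0.70, SE 0.20, adjusted p = 0.0231). By position in the lobule, 10 of 18 pericentral genes were called lower (9 to 11 over the alternatives), with a median of −1.36, and of 17 periportal genes 4 were called lower and 5 higher (4 to 5), with a median of 0.00. Glul, glutamine synthetase of the cells around the central vein, went from 931.6 ± 99.1 to 120.3 ± 16.3 CPM (−2.95, SE 0.17, adjusted p = 1.27e-07), and Rgn had a log2 fold change of −3.38. Of the periportal genes, Etnppl (−1.82) and Pigr (−1.19) fell and Sds (1.74) and Asl (1.56) rose.

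Markers of other cell types were counted, beside 7.31% called lower and 7.81% called higher of all genes tested. Of 15 neutrophil markers 11 were tested and called higher (2 to 11 over the alternatives, the fewest with 10 counts required in every sample). Most were near 0 in control mice and passed the filter through the LPS mice, so the count is a description only. The sum over the list was 5.378, 4.86, 2.322 and 3.726 CPM in control mice and 233.3, 179.4 and 171.9 CPM in LPS mice. S100a9 was the most abundant in LPS mice, and Mpo had 3 counts or fewer in every mouse. Of 15 macrophage markers, 5 were called higher (4 to 6 over the alternatives) and 1 was called lower (1 to 4). That gene was the Kupffer cell lectin Clec4f (54.42 ± 11.8 to 12.29 ± 10.3 CPM, −2.13, SE 0.41, adjusted p = 0.00216). Without LPS mouse 1 its log2 fold change was −3.09. The macrophage sum was 187.7, 256.9, 243.1 and 158.8 CPM in control mice and 841.6, 242.7 and 250.2 CPM in LPS mice. Marco was at 3.685 ± 1.54 CPM in control mice. It was at 409.7 CPM in LPS mouse 1 and at 66.48 and 65.61 CPM in LPS mice 2 and 3. LPS mouse 1, with the lowest Mup sum, had the highest neutrophil and macrophage sums. Called lower were 2 of 13 endothelial (1 to 3 over the alternatives), 3 of 12 stellate cell (2 to 4), 3 of 5 tested lymphocyte markers (2 to 3; 11 listed) and 4 of 5 tested erythroid markers (1 to 4; 8 listed), and called higher were 2 endothelial markers (1 to 2) and 1 of 8 tested cholangiocyte markers. The mean sums in control and LPS mice were 192.5 ± 33.9 and 164.9 ± 57.4 CPM for endothelial markers. They were 443.6 ± 144 and 323.8 ± 44.5 CPM for stellate cell markers. For cholangiocyte markers the mean sums were 143.4 ± 85.7 and 156.3 ± 14.6 CPM. For lymphocyte markers they were 7.727 ± 1.66 and 2.974 ± 0.847 CPM. For erythroid markers, of which Epb42 had no count, they were 225.8 ± 60.1 and 81.41 ± 47.8 CPM. The part of these cell types in the lower Mup levels was not tested.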

How the data were processed

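Liver poly(A) RNA was sequenced from dUTP strand-marked libraries of 4 control and 3 LPS mice. The table that the authors deposited holds raw read counts per gene with no normalization. The submitters' processing notes name cutadapt 1.9.1, HISAT2 2.2.1 and HTSeq 0.6.1 with build GRCm39; the strand setting of the counting, and what was done with multi-mapped reads, are not given in the sources used here. In R 4.3.3, edgeR 4.0.16 was run on the whole table (filterByExpr, TMM scaling, quasi-likelihood test, condition as the only term, Benjamini-Hochberg adjustment over 13683 genes). Calls needed an adjusted p under 0.05 together with a log2 fold change over 1 in size. Standard errors were derived from the F statistic. The family sum was tested by an exact permutation test over 35 assignments. Intervals and floors (3 counts) cover counting error only. DESeq2 1.42.0 was an alternative. The fit was tested on simulated data. Transcripts came from GENCODE M21, and promoters and gene order from RefSeq (GRCm38.p6), used for sequence and order only. Named were every member, other Mup rows by count and range, in each list up to 3 genes called lower and 3 called higher with the smallest p and a mean of at least 10 CPM (1 of these is not reported here), set regulators (1 of them is not reported here) and lipocalins, and the 5 genes of closest pattern; markers of cell types other than hepatocytes are given mainly by counts and sums. Members and lists were chosen with earlier results of these data known.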

Additional observations from a re-analysis of the deposited data

Results flagged for a closer look

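In the 4 control mice, 1 value of each of the following genes lay far from the other 3, measured as its gap to the nearest one over the whole range. Chance gives this in about 1 in 20 groups, and 5 such values among 109 groups tested is no more than that share. Socs2 was 91.29 CPM in control mouse 3, with 22.15 CPM the next. Hpx was 2595 CPM in control mouse 4, with 3342 CPM the next. C1qb, a complement gene of macrophages, was 10.45 CPM and Lyve1, an endothelial marker, 7.742 CPM in control mouse 4, with 14.77 and 5.024 CPM the next. Reln, a stellate cell marker, was 29.09 CPM in control mouse 3, with 39.2 CPM the next. No control mouse was set apart in this way for the family sum or for any of the 10 Mup members. Groups of 3, such as the LPS mice, were not tested.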

How the results depend on the processing

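The family sum in LPS mice stayed between 32.9% and 40% of control over 16 alternatives in scaling, library size, members summed and mice. With LPS mice 2 and 3 summed it was 34% (exact permutation p = 0.0667), and with 1 mouse left out at a time it was 33.8% to 40% (p = 0.0667 to 0.1); each of these p-values is the smallest that fewer mice allow. The deviations of same-numbered mice correlated at 0.22, −0.06 and 0.09. These values were not compared with those of differently numbered mice, so they cannot show whether replicate numbers pair the mice. With the replicate number as a block, the mean percent within same-numbered mice was 36% (22.4%, 45.5% and 39.9%; exact permutation p = 0.25, the smallest for 3 pairs), and in edgeR the block changed no member's call; of the other Mup rows named, only Mup-ps19 lost its call (−1.22, adjusted p = 0.0501). As 1 row in the edgeR fit or in DESeq2, the family was called lower in 16 of 16 alternatives, with log2 fold changes from −1.60 to −1.32 and an adjusted p of at most 0.00409. Between 9 and 10 members were called lower and 0 higher in 18 alternatives; at an adjusted p below 0.01 there were 9. Apart from Mup20, each member kept its call in 16 of 16 alternatives. Without TMM scaling, 1177 genes were called lower and 926 higher. Counts were low for Mup10, Mup6, Mup13 and most pseudogene rows, and Mup4 and Mup5 were too low to test.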
